A study of Mus musculus with 17 samples.

Results

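Imprinted genes are expressed mainly or wholly from the copy inherited from 1 parent. The set described here holds 43 imprinted genes that are known from brain, chosen by gene symbol and not by their values, out of the 48440 genes of the deposited table. By textbook knowledge, 22 of the 43 are classed as expressed from the paternal copy and 18 from the maternal copy. For the other 3 (Grb10, Gnas and Ddc) the active copy depends on the tissue or the transcript. The classes are general, several of the maternal genes are only biased in brain, and a class may not hold in adult frontal cortex. The genes lie in 19 imprinted clusters or single loci, of which 13 hold at least 2 of them.

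The samples are frontal cortices of adult C57BL/6J males, 17 in all, taken at 189 days of age. The 9 Poly(I:C) mice were born to dams injected intraperitoneally at G12.5 of gestation with 20 mg/kg of Poly(I:C), a synthetic double-stranded RNA that sets off an antiviral immune response, and the 8 saline mice to dams given saline alone. All offspring stayed with their mothers to weaning, were then housed by sex and prenatal group, and carried no engineered allele. The study used 11 dams, and the labels used here do not tie an offspring to its dam, so littermates could not be modelled and each mouse was treated as independent. C57BL/6J is an inbred strain and the values are totals per gene, so the parental copy that gave the RNA was not measured in any sample.

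In an imprinted cluster, DNA methylation laid down in 1 parent's germ line marks a control region, and that mark sets which of the neighbouring genes are read from each chromosome. The zinc-finger protein ZFP57 binds the methylated form of the sequence TGCCGC and helps to keep the mark through early development. Many imprinted genes act on fetal growth, and in the brain several act on neuronal survival, synapses and hormone signalling. Loss of the paternally expressed genes at the Snrpn cluster underlies Prader-Willi syndrome in humans, and loss of the maternally expressed Ube3a at the same cluster underlies Angelman syndrome.

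Values are TPM, each gene's share of all transcripts after division by transcript length and scaling to a fixed total, so levels are comparable between genes within a library. A gene was tested if it reached 1 TPM in at least 8 libraries, which 14144 genes and 33 of the 43 imprinted genes did. The tested imprinted genes comprised 17 of 22 paternally expressed genes, 13 of 18 maternally expressed genes and all 3 of mixed class. Markers of cortical excitatory neurons were abundant in all libraries, at a summed 2718 to 3038 TPM in Poly(I:C) and 2752 to 2986 TPM in saline samples. Libraries numbered 7 stood apart in markers of neighbouring tissue. Poly(I:C) replicate 7 had 352 TPM of striatal projection neuron markers against 191 to 223 TPM in saline and a Poly(I:C) median of 207, and 3094 TPM of oligodendrocyte markers against a Poly(I:C) median of 1872 and at most 2129 TPM in saline. Saline replicate 7 had 61.6 TPM of olfactory bulb markers against a saline median of 8.59. Choroid plexus markers summed to at most 7.69 TPM and hypothalamic neuron markers to at most 2.59 TPM in any library. In bulk tissue, fewer cells of a type and less RNA per cell cannot be told apart.

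The 33 tested imprinted transcripts covered nearly 3 orders of magnitude in frontal cortex, and the 10 under the filter had lower means. Meg3, a maternally expressed long non-coding RNA, had the highest mean over all libraries at 1423 TPM, which ranked 38 among the tested genes. Gnas followed at 1064 TPM, then the paternally expressed Snurf at 729 TPM and Snrpn at 695 TPM, and Rian at 520 TPM. Together 7 of the tested imprinted genes had a mean of at least 100 TPM and 6 had a mean under 10 TPM. All 43 genes summed to 5478 ± 275 TPM (SD, n = 9) in Poly(I:C) and 5698 ± 259 TPM (n = 8) in saline libraries, which is 0.548% and 0.570% of all TPM.

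**Figure D1:**
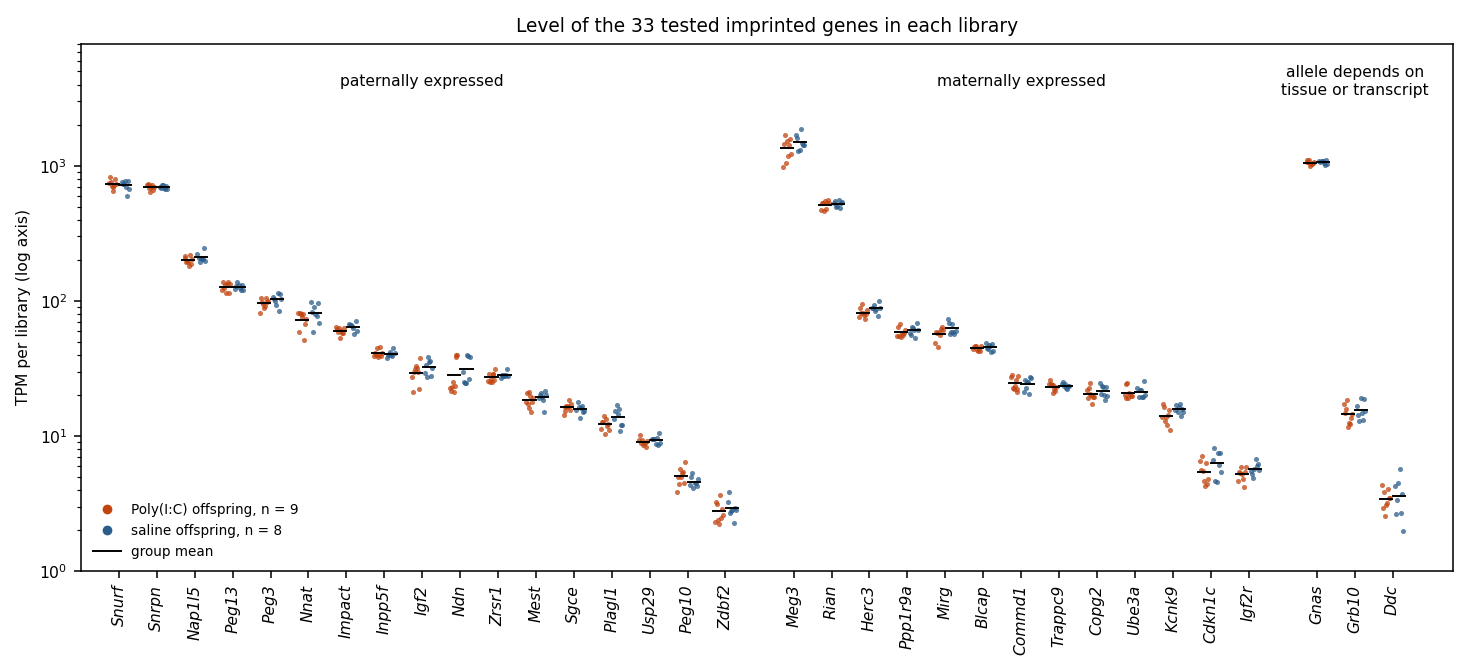
Level of each tested imprinted gene in every library, as TPM on a log axis, with points for libraries (9 Poly(I:C), 8 saline) and bars for group means. Genes are ordered by mean level within each class, from Snurf to Zdbf2, Meg3 to Igf2r and Gnas to Ddc, and the libraries of both groups overlap for each gene.

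The first comparison asked whether prenatal Poly(I:C) went with a different level of imprinted transcripts, and whether maternally and paternally expressed genes differed in this. No imprinted gene differed between the groups at an adjusted p under 0.05 in limma, a linear model with a spread shared across genes, where 0% of the 14144 tested genes did, and the exact permutation test and the Mann-Whitney test also called 0. Unadjusted p was under 0.05 for 5 of the 33 (15.2%), all lower in Poly(I:C), against 8.75% of all tested genes, of which 7.85% were lower and 0.898% higher in Poly(I:C) at that p. These 5 were Impact, Kcnk9, Plagl1, Herc3 and Mirg. Poly(I:C) was lower than saline in 26 of the 33 genes and higher in 7, where 71% of all tested genes were lower. The median difference of log2(TPM + 1), Poly(I:C) minus saline, was −0.062 over the imprinted genes and −0.035 over all tested genes.

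The classes compared here are those given at the start, with their limits. Over all tested genes 71% were lower in Poly(I:C). Among the 17 genes classed as paternally expressed 11 (64.7%) were lower and 6 higher, with a median difference of −0.062. Of the 13 genes classed as maternally expressed 12 (92.3%) were lower and 1 (Commd1) was higher, with a median of −0.072. The class medians differed by less than the SD between libraries of each class's median. This SD was 0.063 for the paternal and 0.064 for the maternal genes. It is the spread of single libraries and not the error of a difference between classes, which was not tested. Both class medians stayed below 0 under the other scalings, while the split of the maternal genes moved. With each library rescaled by its median ratio to the others, 50.9% of all tested genes were lower in Poly(I:C), the maternal genes split into 8 lower and 5 higher (median −0.036), and the paternal genes stayed at 11 lower and 6 higher (median −0.032). Under that scaling none of the 33 imprinted genes had an unadjusted p under 0.05 in limma, against 7.34% of all tested genes, and 2 of all tested genes but none of the imprinted ones passed the adjusted threshold.

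Summed by class, the paternal transcripts came to 2184 ± 87.0 TPM in Poly(I:C) and 2197 ± 101 TPM in saline libraries. The maternal sum was 2218 ± 276 TPM in Poly(I:C) and 2412 ± 220 TPM in saline libraries, and Meg3 made up most of it. Ratios of group means ran from 0.867 for Cdkn1c to 1.10 for Peg10. For 21 of the 33 genes the 95% interval of the difference lay within 0.25 on the log2 scale in both directions, and the widest interval, that of Ndn, reached −0.46. The groups overlapped in all 33 genes, where 0.0283% of all tested genes did not overlap.

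**Figure D2:**
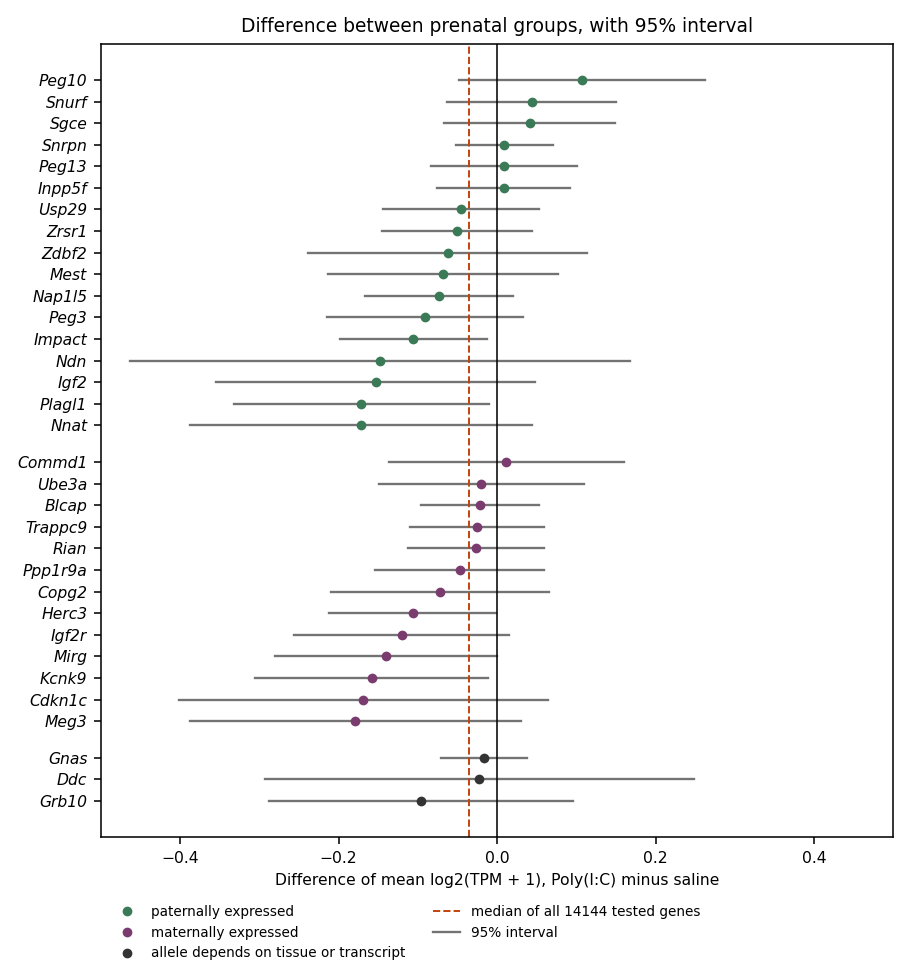
Difference of mean log2(TPM + 1), Poly(I:C) minus saline, for the 33 tested imprinted genes, with 95% intervals from limma, coloured by class, beside the median of all 14144 tested genes (dashed line). Of the paternally expressed genes 11 lie below 0 and 6 above, and of the maternally expressed genes 12 lie below and 1 above. Of all tested genes 71% were lower in Poly(I:C).

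The Dlk1-Meg3 cluster on chromosome 12 held the most abundant maternal transcripts. Its 3 non-coding genes, Meg3, Rian and Mirg, lie in a row on the plus strand, and Rian and Mirg carry small nucleolar RNAs and microRNAs. Meg3 (chr12:109541001-109571726, GRCm38) ran from 986 to 1694 TPM with a median of 1422 in Poly(I:C) libraries and from 1288 to 1866 TPM with a median of 1452 in saline libraries. Poly(I:C) replicates 1 and 4 were lowest and saline replicate 5 highest, and 3 of 9 Poly(I:C) libraries were above the saline median. The mean was 1345 ± 244 TPM in Poly(I:C) and 1511 ± 196 TPM in saline libraries, a log2 difference of −0.18 (SE 0.10, limma adjusted p = 0.617).

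Rian (chr12:109603940-109661716) ran from 463 to 563 TPM around a median of 527 in Poly(I:C) and from 485 to 555 TPM around 532 in saline libraries. Its means of 515 ± 35.3 and 524 ± 25.9 TPM differed by less than the SD of either group. Mirg (chr12:109729764-109749460) ran from 45.4 to 63.9 TPM with a median of 58.5 in Poly(I:C) and from 57.1 to 74.1 TPM with a median of 59.7 in saline libraries. Poly(I:C) replicates 1, 4 and 6 were below all saline libraries for Mirg, and saline replicate 1 was highest. Its means were 56.9 ± 6.03 and 62.8 ± 6.33 TPM, a log2 difference of −0.14 (SE 0.067, limma adjusted p = 0.569). Dlk1, the paternally expressed membrane protein of the cluster, was under the filter, with a highest library of 1.42 TPM and 3 libraries at 1 TPM or more.

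RefSeq gives Meg3 starts at separate places, with a promoter window each, and the first is shown because the results on covariation turn on this cluster. The window at the later start (upstream bases chr12:109545148-109545397) holds neither of the motifs searched. The printed sequence is the bases just upstream of the first start (RefSeq, GRCm38.p6, chr12:109540746-109540995, plus strand), with capitals marking TGCCGC read on the other strand (GCGGCA) and TGACGTCA, the full cAMP response element.

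Meg3: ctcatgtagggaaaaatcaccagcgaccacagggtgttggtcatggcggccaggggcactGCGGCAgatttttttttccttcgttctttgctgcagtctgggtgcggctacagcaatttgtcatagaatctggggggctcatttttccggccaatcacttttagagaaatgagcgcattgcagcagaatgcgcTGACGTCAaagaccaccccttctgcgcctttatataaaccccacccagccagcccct

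Both motifs were searched on both strands in RefSeq windows of 300 bases, 250 of them before the start. For the imprinted genes, 56 windows of 35 of the 43 genes were used. Chromosome 18, where only Impact of the set lies, was left out of these 56 windows but kept among all windows. TGCCGC was present in 15 of the 56 windows (26.8%) and in 11.6% of all 32851 windows. By class it was in 9 of 29 paternal, 5 of 19 maternal and 1 of 8 mixed windows. The imprinted windows had a median of 12 CpG dinucleotides against 7 for all windows. TGACGTCA, which does not overlap the first motif, was in 4 of 56 windows (7.14%), those of Meg3, Peg3, Usp29 and Zdbf2, and in 1.79% of all windows. The windows are not all separate sequences. Those of Snurf and Snrpn at their shared start are identical and were both counted, and those of Peg3 and Usp29 overlap. The TGACGTCA of Peg3 and that of Usp29 may thus be 1 site counted for both genes. These matches describe the letters only, and no binding or methylation was measured.

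RefSeq places 3 mature microRNAs inside Meg3, 6 inside Rian and 26 inside Mirg. A few are printed to show what these host transcripts carry, with the seed (bases 2 to 8) in capitals. miR-370-3p lies in Rian and the others in Mirg, and miR-453 and miR-496a-5p share 1 seed. The microRNAs themselves were not measured in these libraries of polyadenylated RNA.

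miR-370-3p: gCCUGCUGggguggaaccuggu
miR-134-5p: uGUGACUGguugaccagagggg
miR-154-5p: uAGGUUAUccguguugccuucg
miR-410-3p: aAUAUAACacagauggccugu
miR-453: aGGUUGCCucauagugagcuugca
miR-496a-5p: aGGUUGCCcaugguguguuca

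The Snrpn cluster on chromosome 7 gave the most abundant paternal transcripts. Snrpn encodes the neuronal spliceosome protein SmN, and Snurf a small protein from the start of the same transcript. Snurf ran from 646 to 823 TPM with a median of 739 in Poly(I:C) and from 601 to 776 TPM with a median of 734 in saline libraries. Saline replicate 6 was lowest and Poly(I:C) replicate 2 highest. Its means were 739 ± 53.2 and 718 ± 59.0 TPM, a log2 difference of 0.044 (SE 0.051, limma adjusted p = 0.81). All 216 exon bases that GENCODE M21 gives Snurf (chr7:59995449-60005049) also lie in exons of Snrpn (chr7:59982495-60140219) on the same strand. They lie as well in exons of Gm38393 on that strand, which had a mean of 6.27 TPM and shares 589 exon bases with Snrpn. The reads were thus divided between these genes by the authors' quantification, and the level of Snurf is an estimate over a coding length alone.

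Snrpn ran from 639 to 731 TPM with a median of 701 in Poly(I:C) and from 670 to 720 TPM with a median of 689 in saline libraries. Its means of 697 ± 32.1 and 692 ± 19.3 TPM differed by less than either SD, and its residual SD over libraries was lower than that of all but 1.99% of tested genes. Snurf and Snrpn share a RefSeq start, and Snrpn also has others. The upstream bases of the shared start (chr7:60005200-60005449, minus strand) are shown because transcripts of both genes begin there. These upstream bases hold neither motif. The window of 300 bases, which runs on past the start, holds 1 TGCCGC and was counted above for each of the genes. The Snrpn windows at other starts hold neither motif.

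Snurf and Snrpn: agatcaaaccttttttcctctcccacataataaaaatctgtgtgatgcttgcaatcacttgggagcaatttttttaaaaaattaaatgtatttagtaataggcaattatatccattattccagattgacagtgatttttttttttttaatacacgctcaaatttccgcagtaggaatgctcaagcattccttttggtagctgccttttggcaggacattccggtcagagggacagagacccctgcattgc

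Ndn encodes necdin, a protein of the MAGE family that restrains cell division in neurons. It ran from 21.1 to 40.1 TPM with a median of 23.4 in Poly(I:C) and from 24.8 to 39.9 TPM with a median of 28.2 in saline libraries. Its residual SD was above that of 97.1% of tested genes, the highest percentile among the imprinted genes, and its means were 28.4 ± 8.43 and 31.1 ± 6.88 TPM. Magel2, the neighbouring MAGE gene, was at most 0.53 TPM and was not tested.

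Ube3a, a ubiquitin ligase that neurons express from the maternal copy, ran from 19.2 to 24.6 TPM with a median of 20.2 in Poly(I:C) and from 19.3 to 25.4 TPM with a median of 20.9 in saline libraries. Its means were 20.9 ± 2.09 and 21.2 ± 2.15 TPM. Snhg14, the long antisense RNA that silences the paternal Ube3a, shares 1803 exon bases with it on the opposite strand and had a mean of 65.9 TPM. On that strand Gm44560 shares 2025 and 9330162G02Rik 1796 exon bases with Ube3a, at means of 3.18 and 1.41 TPM. The library kit keeps strand, but whether the counting used strand is not given in the sources used here, so reads of these partners may not be fully separated.

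At the Peg3 cluster, Peg3 (a zinc-finger protein of the paternal copy) and Usp29 (a ubiquitin protease) are transcribed away from each other. Peg3 ran from 81.0 to 106 TPM with a median of 98.6 in Poly(I:C) and from 84.3 to 115 TPM with a median of 103 in saline libraries. Its means were 96.1 ± 7.84 and 103 ± 10.0 TPM, and 2 of 9 Poly(I:C) libraries were above the saline median. Usp29 ran from 8.30 to 10.2 TPM around 8.89 in Poly(I:C) and from 8.60 to 10.6 TPM around 9.47 in saline libraries, with means of 9.05 ± 0.557 and 9.38 ± 0.663 TPM. Zim1, the maternally expressed zinc-finger neighbour, reached 1 TPM in 3 libraries and at most 1.26 TPM. The 146 bases between the annotated starts of Peg3 (6730431) and Usp29 (6730578), chr7:6730432-6730577 on the plus strand, show how close the divergent starts lie. These bases hold neither of the motifs searched.

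Peg3 to Usp29: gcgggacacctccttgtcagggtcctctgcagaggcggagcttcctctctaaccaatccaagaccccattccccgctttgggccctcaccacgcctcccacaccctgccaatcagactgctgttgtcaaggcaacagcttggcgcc

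Growth-control genes were next. Igf2, a fetal growth factor that in the adult brain is known from the meninges and choroid plexus, ran from 21.3 to 37.6 TPM with a median of 29.8 in Poly(I:C) and from 27.3 to 38.6 TPM with a median of 32.6 in saline libraries. Poly(I:C) replicates 1, 2 and 8 were below all saline libraries and replicate 9 was highest of its group. The means were 29.3 ± 5.09 and 32.5 ± 4.10 TPM, a log2 difference of −0.15 (SE 0.096, limma adjusted p = 0.645). Its neighbour H19, a maternal non-coding RNA, was at most 0.32 TPM.

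Igf2r, the receptor that clears Igf2 from the cell surface, ran from 4.18 to 5.94 TPM around 5.35 in Poly(I:C) and from 4.89 to 6.75 TPM around 5.68 in saline libraries. Poly(I:C) replicate 7 was lowest and 2 of 9 Poly(I:C) libraries were above the saline median. The means of 5.20 ± 0.574 and 5.74 ± 0.575 TPM gave a log2 difference of −0.12 (SE 0.065, limma adjusted p = 0.599). Airn, the paternal antisense RNA at Igf2r, was at most 1.31 TPM.

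Plagl1, a paternally expressed zinc-finger factor that arrests cell growth, ran from 10.4 to 14.1 TPM with a median of 12.2 in Poly(I:C) and from 10.9 to 16.97 TPM with a median of 14.0 in saline libraries. Of the Poly(I:C) libraries 1 of 9 was above the saline median, and saline replicate 6 was the lowest of its group. The means were 12.2 ± 1.18 and 13.9 ± 2.10 TPM, a log2 difference of −0.17 (SE 0.077, limma adjusted p = 0.565). Cdkn1c, a maternal inhibitor of cyclin-dependent kinases, ran from 4.23 to 7.15 TPM around 5.53 in Poly(I:C) and from 4.54 to 8.19 TPM around 6.35 in saline libraries. Its means of 5.46 ± 1.02 and 6.30 ± 1.37 TPM differed by less than the saline SD. Kcnq1ot1 and Phlda2 of the same cluster were at most 0.32 and 0.12 TPM, with Phlda2 at 0 in 15 of 17 libraries.

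Grb10, an adaptor that dampens insulin-type receptors and is read from the paternal copy in neurons, ran from 11.7 to 18.6 TPM around 14.6 in Poly(I:C) and from 12.96 to 18.96 TPM around 15.02 in saline libraries. Its means were 14.5 ± 2.33 and 15.6 ± 2.34 TPM. Ddc, the decarboxylase that makes dopamine and serotonin, ran from 2.55 to 4.37 TPM around 3.45 and from 1.98 to 5.73 TPM around 3.54, with means of 3.44 ± 0.578 and 3.61 ± 1.21 TPM in the same order of groups. Both genes differed by less than the SD of either group.

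At the Mest cluster, Mest (a paternal member of the alpha/beta hydrolase family) ran from 15.2 to 21.2 TPM around 17.8 in Poly(I:C) and from 15.01 to 21.5 TPM around 19.7 in saline libraries. Copg2, a maternally biased subunit of the Golgi transport coat, ran from 17.2 to 24.6 TPM around 20.1 and from 18.4 to 24.6 TPM around 21.9. Their means were 18.4 ± 2.07 and 19.3 ± 1.96 TPM for Mest, and 20.6 ± 2.18 and 21.7 ± 2.19 TPM for Copg2. The genes share 912 exon bases on opposite strands, so the strand limit given for Ube3a applies to both.

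Peg10, derived from a retrotransposon, had the largest positive difference of the imprinted genes. It ran from 3.84 to 6.46 TPM with a median of 5.00 in Poly(I:C) and from 4.12 to 5.33 TPM with a median of 4.47 in saline libraries, and 6 of 9 Poly(I:C) libraries were above the saline median. The means of 5.06 ± 0.783 and 4.60 ± 0.412 TPM did not pass the test (limma adjusted p = 0.673). Sgce, epsilon-sarcoglycan, whose loss from the paternal copy causes myoclonus-dystonia, ran from 14.2 to 18.3 TPM around 16.5 and from 13.6 to 17.7 TPM around 15.9, with means of 16.3 ± 1.18 and 15.8 ± 1.25 TPM.

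Ppp1r9a of the same cluster encodes neurabin, an actin-binding protein of dendritic spines. It ran from 54.1 to 67.6 TPM around 57.8 in Poly(I:C) and from 53.4 to 68.4 TPM around 61.4 in saline libraries, with means of 58.7 ± 4.63 and 60.7 ± 4.70 TPM. Asb4 was at most 0.32 TPM and Calcr, the calcitonin receptor, was listed at 0 in all 17 libraries.

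Nnat and Nap1l5 sit inside an intron of a host gene on the opposite strand. Nnat, neuronatin, a small membrane protein of developing neurons, ran from 51.5 to 81.3 TPM with a median of 76.6 in Poly(I:C) and from 58.8 to 97.6 TPM with a median of 81.7 in saline libraries. No Poly(I:C) library was above the saline median, and Poly(I:C) replicate 7 was lowest. The means were 72.3 ± 10.8 and 81.7 ± 13.6 TPM, a log2 difference of −0.17 (SE 0.10, limma adjusted p = 0.634). Its host Blcap ran from 42.8 to 46.7 TPM around 44.3 in Poly(I:C) and from 42.0 to 48.7 TPM around 45.6 in saline libraries, with means of 44.7 ± 1.63 and 45.5 ± 2.55 TPM.

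Nap1l5, a relative of the nucleosome assembly proteins, ran from 181 to 219 TPM with a median of 199 in Poly(I:C) and from 194 to 245 TPM with a median of 206 in saline libraries. Saline replicate 7 was highest and 3 of 9 Poly(I:C) libraries were above the saline median. The means of 200 ± 12.2 and 210.3 ± 16.1 TPM gave a log2 difference of −0.073 (SE 0.045, limma adjusted p = 0.639). Its host Herc3, a ubiquitin ligase, ran from 73.5 to 94.4 TPM with a median of 80.7 in Poly(I:C) and from 77.0 to 99.3 TPM with a median of 88.2 in saline libraries. Poly(I:C) replicates 7 and 1 were below all saline libraries, and saline replicate 7 was highest. The means were 82.0 ± 6.51 and 88.3 ± 6.51 TPM, a log2 difference of −0.11 (SE 0.050, limma adjusted p = 0.569).

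The Peg13 cluster on chromosome 15 pairs a paternal non-coding RNA with maternally biased neighbours. Kcnk9, a leak potassium channel (TASK-3) whose maternal loss causes Birk-Barel syndrome, ran from 11.0 to 17.1 TPM with a median of 13.8 in Poly(I:C) and from 14.1 to 17.2 TPM with a median of 15.7 in saline libraries. Poly(I:C) replicates 9, 6, 4, 1 and 5 were below all saline libraries. The means were 14.1 ± 1.99 and 15.7 ± 1.03 TPM, a log2 difference of −0.16 (SE 0.070, limma adjusted p = 0.557).

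Peg13 itself ran from 114 to 139 TPM around 132 in Poly(I:C) and from 120 to 137 TPM around 126 in saline libraries, with means of 128 ± 9.70 and 127 ± 6.17 TPM. Trappc9, a subunit of a vesicle-tethering complex within which Peg13 lies, ran from 21.0 to 25.8 TPM around 23.7 and from 22.2 to 25.1 TPM around 23.5. Its means were 23.2 ± 1.52 and 23.6 ± 0.922 TPM. Both differed by less than the SD between libraries.

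Impact, a paternally expressed inhibitor of the stress kinase GCN2, had the smallest p of the imprinted genes. It ran from 53.1 to 63.9 TPM with a median of 60.2 in Poly(I:C) and from 57.03 to 71.1 TPM with a median of 65.8 in saline libraries. No Poly(I:C) library was above the saline median, although saline replicates 5, 6 and 8 lay within the Poly(I:C) range. The means were 59.9 ± 3.37 and 64.6 ± 4.60 TPM, a log2 difference of −0.11 (SE 0.044, limma adjusted p = 0.545).

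Gnas, which encodes the stimulatory G protein alpha subunit along with transcripts read from the paternal, maternal or both copies, was the steadiest of the set. It ran from 992 to 1103 TPM with a median of 1068 in Poly(I:C) and from 1022 to 1109 TPM with a median of 1080 in saline libraries. Its residual SD over libraries was at the lowest 0.50% of tested genes. The means were 1058 ± 36.6 and 1070 ± 29.3 TPM, a log2 difference of −0.017 (SE 0.026, limma adjusted p = 0.862). The table gives 1 value for all Gnas transcripts, so those of different parental origin were not separated.

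The remaining loci varied little between the groups. Inpp5f, a phosphoinositide phosphatase, ran from 38.1 to 45.3 TPM around 40.1 in Poly(I:C) and from 37.9 to 44.9 TPM around 40.1 in saline libraries, with means of 41.0 ± 2.499 and 40.7 ± 2.11 TPM. Zdbf2, a paternal gene set by a transcript of the early embryo, ran from 2.24 to 3.68 TPM around 2.58 and from 2.26 to 3.82 TPM around 2.83, with means of 2.77 ± 0.498 and 2.93 ± 0.455 TPM. Slc38a4, an amino acid transporter, was at most 0.54 TPM. Inpp5f shares 284 exon bases on the same strand with Gm43580, which had a mean of 6.68 TPM.

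Zrsr1, a splicing-factor retrogene inside Commd1, ran from 25.1 to 31.6 TPM around 26.6 in Poly(I:C) and from 26.9 to 31.2 TPM around 28.1 in saline libraries, with means of 27.3 ± 2.22 and 28.3 ± 1.27 TPM. Commd1, a protein of copper handling and endosomal sorting, ran from 21.0 to 28.3 TPM around 23.6 and from 20.4 to 27.5 TPM around 25.3, with means of 24.6 ± 2.80 and 24.4 ± 2.68 TPM. They share 412 exon bases on opposite strands. Commd1 also shares 294 exon bases on the same strand with Gm28048, which had a mean of 5.12 TPM.

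A library often stood at the edge of many imprinted genes at once. Within the saline group, replicate 7 was highest in 12 of the 33 tested genes and replicate 6 lowest in 17. Within the Poly(I:C) group, replicate 5 was lowest in 12 and replicate 4 highest in 9. Saline replicate 7 is also the library with the olfactory bulb markers given above, and the part of those markers in its imprinted levels was not tested.

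The last comparison asked whether imprinted neighbours varied together from mouse to mouse. For 12 listed pairs with both genes tested, Pearson's r and Spearman's rho were computed over the 17 libraries after removal of group means, with 100000 permutations within groups and Benjamini-Hochberg adjustment over the 12 pairs. Of these, 5 pairs had an adjusted p under 0.05 for r. The list held only part of the 21 pairs of tested genes that share a cluster, of which 16 had r above 0. Pairs outside the list were not tested, and their r ran from −0.39 (Ndn with Ube3a) to 0.51 (Snurf with Ube3a). Meg3 and Rian had r = 0.82 (adjusted permutation p = 0.00228, rho = 0.81), with 0.89 within Poly(I:C) and 0.66 within saline libraries. Without the libraries farthest from the median, Poly(I:C) replicates 1 and 3, r was 0.81.

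Meg3 and Mirg had r = 0.78 (adjusted permutation p = 0.00228, rho = 0.73), with 0.76 within Poly(I:C), 0.83 within saline and 0.81 without Poly(I:C) replicates 1 and 3. Rian and Mirg had r = 0.76 (adjusted permutation p = 0.00228, rho = 0.68), with 0.89 and 0.55 within the groups and 0.60 without Poly(I:C) replicates 4 and 1. The 3 RNAs of the Dlk1-Meg3 cluster were thus high and low in the same libraries in both groups. Ranked by r among the other 14143 tested genes, Rian was 80th for Meg3 and Meg3 43rd for Rian, so genes outside the cluster followed each of them more closely.

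Peg10 and Sgce, which start from a shared divergent region, had r = 0.70 (adjusted permutation p = 0.00549, rho = 0.67), with 0.76 within Poly(I:C), 0.69 within saline and 0.62 without Poly(I:C) replicates 9 and 1. Sgce was 50th for Peg10 and Peg10 15th for Sgce. Snrpn and Ube3a, of opposite parental class, had r = 0.61 (adjusted permutation p = 0.0252, rho = 0.70) on TPM as deposited. Under median-of-ratios scaling it was 0.16 (adjusted permutation p = 0.663), so this relation rested on the scaling, while the 4 others kept r between 0.68 and 0.82.

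The other 7 listed pairs did not pass for r. Nnat and Blcap had r = 0.49 (adjusted permutation p = 0.0683) and passed under median-of-ratios scaling, at r = 0.64 (adjusted permutation p = 0.0154). Peg3 and Usp29, despite their adjacent starts, had r = 0.51 (adjusted permutation p = 0.0671), with 0.13 within Poly(I:C) and 0.82 within saline libraries, a contrast that was not tested. Median-of-ratios scaling lowered the r of Peg3 with Usp29 to 0.12 (adjusted permutation p = 0.703). It lowered that of Snrpn with Snurf from 0.50 to 0.016. Mest and Copg2 had r = 0.52, and 0.12 once the libraries farthest in Mest (replicate 6 of saline, 7 of Poly(I:C)) were left out. Nap1l5 and its host Herc3 had r = 0.22.

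Over all 528 pairs of tested imprinted genes the median r was 0.19, with 0.50 over the 21 pairs of 1 cluster and 0.18 over the 507 pairs of different clusters. Median-of-ratios scaling lowered these medians to −0.0023, 0.16 and −0.0094. These are descriptions over the same 17 libraries, and pairs share genes.

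**Figure D3:**
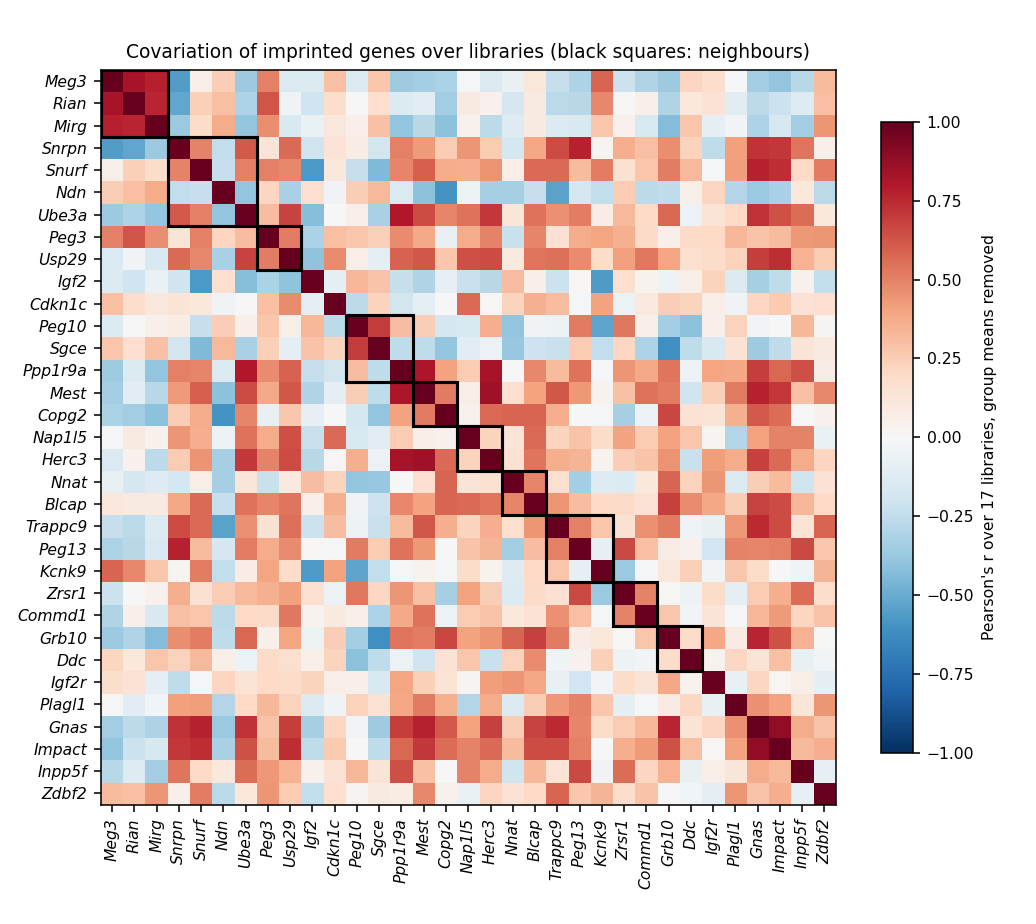
Pearson's r between tested imprinted genes over 17 libraries after removal of group means, on TPM as deposited, from −1 (blue) to 1 (red), with black squares around neighbours of 1 cluster. Meg3, Rian and Mirg form the darkest square at the top left, with r of 0.76 to 0.82.

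Levels were also set against marker lists of 8 cell types, as the mean z score of the tested markers, in 264 relations added after the data were examined. Igf2 followed the 10 tested meningeal fibroblast markers at r = 0.85 (rho = 0.92, adjusted permutation p = 0.0066 for r), with 0.82 within Poly(I:C), 0.92 within saline and 0.81 when replicate 9 of Poly(I:C) and 3 of saline were left out. Median-of-ratios scaling gave r = 0.87 (adjusted permutation p = 0.00264). The summed meningeal markers ran from 30.6 to 49.2 TPM in Poly(I:C) and from 30.5 to 47.1 TPM in saline libraries, and 9 of the 10 were lower on average in Poly(I:C), none with an unadjusted limma p under 0.05. Igf2 and these markers thus varied together between mice of both groups, and the part of the markers in the group values of Igf2 was not tested.

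Mest followed the 8 cortical excitatory neuron markers at r = 0.89 (rho = 0.89, adjusted permutation p = 0.0066) on TPM as deposited. Under median-of-ratios scaling r was 0.65 (adjusted permutation p = 0.304). Herc3 and Ppp1r9a with the same list (r = 0.78 and 0.76), and Usp29 with olfactory bulb markers (r = 0.66), also passed for r as deposited, and none of these passed for rho or under the other scaling. Meg3 with microglial markers passed for rho (0.77, adjusted permutation p = 0.0387) and not for r (0.68, adjusted permutation p = 0.0705).

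**Figure D4:**
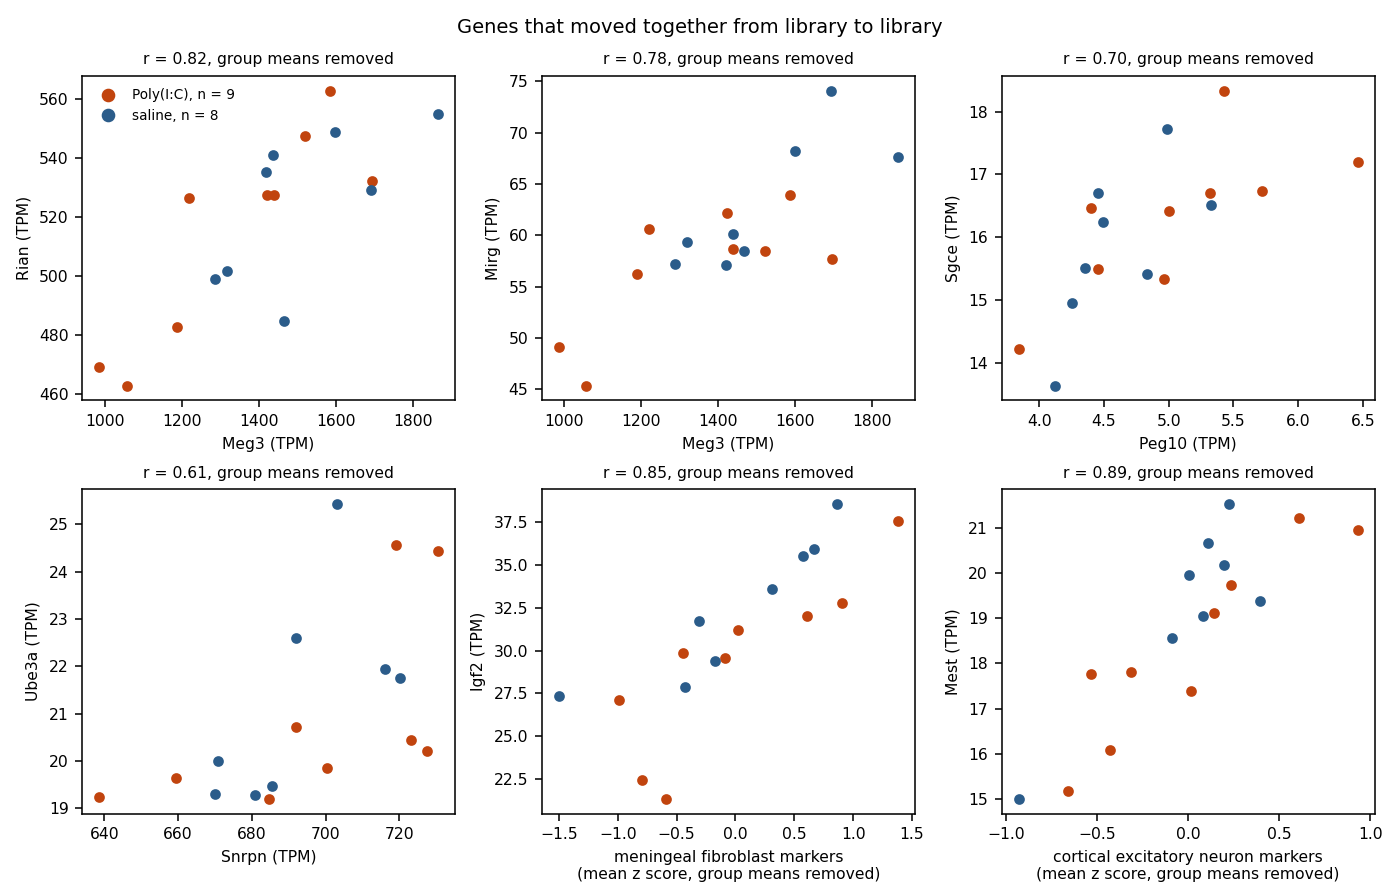
Library values of imprinted genes that varied together: Rian and Mirg against Meg3, Sgce against Peg10 and Ube3a against Snrpn (TPM), Igf2 against meningeal fibroblast markers and Mest against cortical excitatory neuron markers (mean z score with group means removed), with points for 9 Poly(I:C) and 8 saline libraries. The r printed above each panel is after removal of group means, and that of Snrpn with Ube3a was 0.16 under median-of-ratios scaling.

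Other genes of the pathway gave a like picture. Of 40 further imprinted genes, 25 were tested, with 17 lower and 8 higher in Poly(I:C) and a median difference of −0.029. None passed the adjusted threshold in limma and 2 had an unadjusted p under 0.05, where 71% of all tested genes were lower and 8.75% had such a p. These were H13, a signal peptide peptidase, at 39.6 ± 1.96 against 42.5 ± 2.80 TPM, and Phactr2, a regulator of actin and protein phosphatase, at 8.83 ± 0.849 against 9.84 ± 1.01 TPM. Of 26 genes that set, read or keep imprints, 21 were tested, with 16 lower and 5 higher and a median of −0.066. None passed the adjusted threshold in limma and 4 had an unadjusted p under 0.05, where the shares over all tested genes are those just given. Arid4a, a chromatin factor of the Snrpn imprint, was at 21.3 ± 0.736 against 23.8 ± 1.55 TPM (limma adjusted p = 0.486), and Setdb1, the histone methyltransferase that ZFP57 brings in through TRIM28, at 12.99 ± 0.939 against 14.4 ± 0.967 TPM (limma adjusted p = 0.486).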

How the data were processed

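Per the labels' protocols, stranded libraries of polyadenylated RNA were read from 1 end over 100 bp. The authors deposited TPM per gene. The submitters' processing notes name RSEM 1.2.31, STAR 2.5.1b, Trim Galore 0.4.0 and the build mm10. RSEM divides reads that match several transcripts, so overlapping genes hold estimated shares. Neither annotation release nor strand setting is given in the sources used here. TPM keeps no depth, so no counting interval was computed, and it is relative, so other scalings were run.

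Of 48440 gene IDs, 48058 matched a symbol. Genes reaching 1 TPM in 8 or more libraries were tested with limma 3.58.1 in R 4.3.3 (trend, two-sided, Benjamini-Hochberg over all 14144) on log2(TPM + 1), a scale that understates the change of low genes. The labels name no batch, and no libraries held identical values. P-values measure the spread between these mice. Permutations used scipy 1.17.1, numpy 2.4.6 and pandas 2.3.3 under Python 3.11.15, and figures matplotlib 3.10.9. Copies were searched with BLAST 2.17.0. Coordinates are from GENCODE M21. The limma fit, the exact permutation test and the permutation test of correlations were tried on simulated data.

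Alternatives were pseudocounts 0.1 and 0.5, no filter, a minimum of 5 TPM, and median-of-ratios and quantile scaling. Others were a replicate block (without Poly(I:C) replicate 9), rank and exact permutation tests and left-out libraries. All 43 genes are accounted for, and statistics are given in full for the 10 with the smallest p and the most abundant of each class. The genes and lists were chosen with earlier results of these data known.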

Additional observations from a re-analysis of the deposited data

Results flagged for a closer look

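In 66 groups of libraries (33 genes, 2 groups each), 2 held a library set apart from the rest by Dixon's criterion, where chance gives about 1 in 20, or 3.3. Zrsr1 was highest in saline replicate 7, at 31.22 TPM, with the next saline library at 28.46 TPM and the lowest at 26.9 TPM. Mest was lowest in saline replicate 6, at 15.01 TPM, with the next at 18.57 TPM and the highest at 21.52 TPM.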

How the results depend on the processing

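No imprinted gene passed the adjusted threshold under any setting, and the lowest adjusted p of any was 0.315. Over all tested genes the count past it was 0 as reported, 2 under median-of-ratios scaling, 2 with the replicate number as a block, and 0 to 1 with each library left out (1 without saline replicate 4). Deviations of libraries with equal replicate numbers correlated at −0.22 to 0.082. No saline library correlated best with the Poly(I:C) library of its own number. The labels do not say how numbers were given, and this check cannot exclude a shared litter or handling by number. The replicate block left out Poly(I:C) replicate 9, whose number no saline library has. With it the median difference was −0.076 for paternal and −0.064 for maternal genes. Leaving out Poly(I:C) replicate 9 without a block gave the same medians. Of 888 member values under the alternatives, 32 changed sign, in 9 genes, and 24 genes kept their sign throughout. Under median-of-ratios scaling the difference became 0.021 for Gnas, 0.011 for Rian and for Trappc9, 0.015 for Blcap, 0.016 for Ube3a and 0.0084 for Ddc. Quantile normalization gave 0.0098 for Trappc9, 0.012 for Blcap, 0.018 for Ube3a and 0.014 for Ddc. Without both replicates 7, Ube3a was 0.020 and Commd1 0.054. Commd1 was −0.0099 with the replicate block, which lacks Poly(I:C) replicate 9. Leaving out 1 library at a time gave −0.048 to 0.017 for Ube3a, −0.0063 to 0.029 for Peg13, −0.0099 to 0.028 for Inpp5f, −0.11 to 0.062 for Ddc and −0.022 to 0.038 for Commd1. With 1 library left out the paternal median ran from −0.086 to −0.037 (without Poly(I:C) replicate 5) and the maternal one from −0.10 to −0.043 (without Poly(I:C) replicate 7), and without both replicates 7 they were −0.039 and −0.028. Among neighbours, median-of-ratios scaling gave r = 0.16 for Snrpn with Ube3a (no longer past the threshold), 0.64 for Nnat with Blcap (now past it) and −0.29 for Nap1l5 with Herc3, and Trappc9 with Peg13 reached 0.65, past it, without both replicates 7 (0.35 to 0.64 with 1 library left out). The cause of these changes was not tested. Depth is unknown, so the precision of low genes could not be set.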

Other observations

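Ndn fell into separate sets of libraries within both groups. Poly(I:C) replicates 7, 8 and 9 were at 38.7, 39.7 and 40.1 TPM and saline replicates 5, 6 and 8 at 39.9, 39.2 and 38.4 TPM, while the other 11 libraries ran from 21.05 to 29.8 TPM. The gap was 39.7% of the range on the log2 scale. A wider gap with at least 4 libraries on each side was found in 31 tested genes, and the next imprinted gene, Rian, had 24.5%. The pattern was noticed in these data and was not tested.

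The highest r between any imprinted genes was 0.89, between Impact and Gnas, which lie on different chromosomes, and it was 0.53 under median-of-ratios scaling. Mest with Herc3 (0.84, then 0.77) and Herc3 with Ppp1r9a (0.83, then 0.71), also on different loci, moved less with the scaling. The lowest was −0.62, between Grb10 and Sgce (−0.72 under that scaling). These pairs were chosen after their values were seen, and no p is given.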
